A study of Mus musculus with 10 samples.

Results

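The 9 genes described here encode the subunits of the mouse Arp2/3 complex: Actr2, Actr3, Arpc1a, Arpc1b, Arpc2, Arpc3, Arpc4, Arpc5 and Arpc5l. They were taken by name from 35501 annotated genes in 10 libraries of single oocytes at metaphase II, of which 5 came from oocytes treated with TubA and 5 from control oocytes. Germinal vesicle oocytes were taken from the ovaries of ICR mice, 6 to 8 weeks old, and kept in M2 and M16 medium for 16 h, with 0.1 µg/mL TubA in the treated group and without it in the control group. Both groups thus reached metaphase II in culture and not in the animal. TubA is a common short name of tubastatin A, which inhibits the deacetylase HDAC6, but the labels do not write the name out. The labels name no animal, dish or day, so n counts oocyte libraries and the p-values measure only the spread between them, which may be technical.

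The Arp2/3 complex starts new actin filaments as branches on the sides of existing ones. ARP2 and ARP3, which resemble actin, form the first units of the branch, and ARPC1 to ARPC5 hold them and bind the mother filament. The complex is inactive until a nucleation-promoting factor such as N-WASP or a WAVE protein binds it. In mouse oocytes it builds the actin cap over the meiotic spindle and drives the cytoplasmic streaming that keeps the spindle at the cortex for polar body extrusion. HDAC6, the target of tubastatin A, deacetylates tubulin and also cortactin, a protein that binds Arp2/3 and stabilises branches. Mammals have paired genes for some subunits: Arpc1a and Arpc1b for ARPC1, Arpc5 and Arpc5l for ARPC5, and Actr3b as a divergent paralogue of Actr3.

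The deposited values were TPM per annotated transcript, a level scaled for transcript length and to the same total in every library. Levels of different genes are set side by side below on this scale. They also depend on how reads were captured and assigned to transcripts, which was not tested. Much of the level of 4 members was assigned to annotated transcripts that differ from another form of the gene at a splice junction or, in Actr3, in their first bases. Sequences at these points are shown so that the forms named below can be compared. All are GENCODE M21 transcripts of GRCm38 (mm10), written 5′ to 3′ on the transcript strand. The transcripts of each gene also differ at their 5′ or 3′ ends, which are not shown.
The Arpc5l pair (plus strand) differs at the join of exon 1 and exon 2, bases 39008324 and 39013117 of chromosome 2 in Arpc5l-201 and bases 39008344 and 39013115 in Arpc5l-202. Capitals mark the 22 bases that Arpc5l-201 lacks.
Arpc5l-201: cccgacccctgcgaggggacatgcttcggg
Arpc5l-202: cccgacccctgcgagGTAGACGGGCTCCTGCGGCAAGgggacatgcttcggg
In Arpc4 (plus strand) the first exon ends with the start codon at base 113378208 of chromosome 6 and is joined to 3 different exons, which begin at 113380726 in Arpc4-201, 113381963 in Arpc4-203 and 113384082 in Arpc4-202. Capitals mark the start of the second exon.
Arpc4-201: acagcgcccgcgatgACTGCCACTCTCCGC
Arpc4-203: acagcgcccgcgatgGAGTAGCAAAGAACT
Arpc4-202: acagcgcccgcgatgGCCGATGAAATTGAG
In Arpc1b (plus strand) the seventh exon begins at base 145125879 of chromosome 5 in Arpc1b-211 and at 145125891 in Arpc1b-201. Capitals mark the 12 bases, or 4 codons, that Arpc1b-211 adds.
Arpc1b-211: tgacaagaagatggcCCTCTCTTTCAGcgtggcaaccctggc
Arpc1b-201: tgacaagaagatggccgtggcaaccctggc
In Actr3 (minus strand) the transcript Actr3-204 begins at base 125397612 of chromosome 1, inside an intron, and keeps 68 intron bases ahead of a shared exon. Capitals mark what precedes that exon, which is intron in Actr3-204 and the upstream exon in Actr3-201.
Actr3-204: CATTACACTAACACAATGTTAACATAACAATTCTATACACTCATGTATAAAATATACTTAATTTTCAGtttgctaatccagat
Actr3-201: TTTTTCCATCCAGAGtttgctaatccagat

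The libraries carried an oocyte transcriptome. The 10 oocyte markers examined summed to 25390 to 37759 TPM in TubA libraries and 24418 to 34993 TPM in control libraries. H1foo was the highest, at 13734 ± 1965 TPM with TubA and 14869 ± 2606 TPM in control (mean ± SD, n = 5 each). Gdf9 followed, at 6343 ± 845 TPM with TubA and 5587 ± 812 TPM in control. Of 13 cumulus and granulosa markers 3 reached a mean of 1 TPM, and Foxl2 and Amh were listed at 0 throughout. All 13 summed to 19.5 to 39.4 TPM with TubA and 19.4 to 42.7 TPM in control. Among them Cyp19a1 was the highest, at 12.6 ± 3.79 TPM with TubA and 10.5 ± 2.60 TPM in control. Next was Kitl, at 6.84 ± 3.75 TPM with TubA and 8.64 ± 6.52 TPM in control. Theca and stroma markers summed to 4.30 to 13.2 TPM with TubA and 3.08 to 17.3 TPM in control (1 of 8 at a mean of 1 TPM). That gene was Dcn, at 6.34 ± 4.10 TPM with TubA and 6.89 ± 5.39 TPM in control. Star came second, at 0.978 ± 0.951 TPM with TubA and 0.406 ± 0.405 TPM in control. Blood, immune and endothelial markers summed to 41.9 to 84.9 TPM with TubA and 33.8 to 83.0 TPM in control (6 of 10 at a mean of 1 TPM), with Tyrobp and Cd52 listed at 0. Independently of treatment, clustering on all tested genes other than the members put TubA replicates 1 and 2 with control replicates 1 to 3 (library set A) and TubA replicates 3 to 5 with control replicates 4 and 5 (set B). The sets are not a label of the submitters. The number of sets was fixed at 2 in advance. Correlations between libraries overlapped, at 0.909 to 0.961 within sets and 0.861 to 0.942 between them.

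All 9 subunits were listed above 0 in every library, at very unequal levels. Arpc1b, one of the ARPC1 paralogues and a propeller-shaped subunit (ENSMUSG00000029622, chromosome 5, 145114215 to 145130705, plus strand), was the highest, ranking 158 of all genes by mean. Arpc1b had 857.6, 794, 782, 610.5 and 966 TPM in TubA replicates 1 to 5, against 946, 947, 1035, 773 and 690.4 TPM in control replicates 1 to 5. The groups overlapped, with the lowest value in TubA replicate 4 and the highest in control replicate 3. Arpc2, which with ARPC4 forms the core that grips the mother filament (ENSMUSG00000006304, chromosome 1, 74236084 to 74268209, plus strand), came next. Arpc2 had 301, 583, 602, 518 and 538 TPM in TubA replicates 1 to 5, against 605, 569, 434, 511 and 563 TPM in control. TubA replicate 1 stood apart at the low end, and the other TubA libraries lay within the control range. Neither of these genes overlapped in range with its lower neighbour in the order of levels: Arpc1b exceeded Arpc2 in 10 of 10 libraries, and Arpc2 exceeded Arpc5l in 10 of 10.

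The middle of the order held Arpc5l, Actr3, Arpc4, Arpc5, Actr2 and Arpc1a, each overlapping in range with its neighbour. Arpc5l, the second ARPC5 paralogue (ENSMUSG00000026755, chromosome 2, 39005348 to 39015877, plus strand), had 169, 153, 146, 278 and 161 TPM in TubA replicates 1 to 5, against 166, 206, 134.5, 229.8 and 174 TPM in control. TubA replicate 4 was the highest library of this gene. Actr3, encoding ARP3 (ENSMUSG00000026341, chromosome 1, 125392905 to 125435727, minus strand), had 79.5, 66.99, 142, 288 and 174 TPM with TubA, against 63.6, 94.4, 139.7, 214 and 184 TPM in control. Its libraries spanned 4.52-fold, and low and high values occurred in both groups. Arpc4, the partner of ARPC2 in the core (ENSMUSG00000079426, chromosome 6, 113378115 to 113390448, plus strand), had 132.5, 77.3, 56.9, 87.8 and 66.5 TPM with TubA, against 67.4, 76.0, 235, 49.0 and 66.0 TPM in control. Control replicate 3 was far above the other 4 control libraries, which lay between 49.0 and 76.0 TPM.

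Arpc5, the first ARPC5 paralogue (ENSMUSG00000008475, chromosome 1, 152766542 to 152775597, plus strand), had 49.3, 23.2, 25.1, 46.8 and 27.5 TPM in TubA replicates 1 to 5, against 29.5, 51.3, 49.96, 35.2 and 40.1 TPM in control. TubA replicates 2, 3 and 5 lay below all control libraries, while replicates 1 and 4 lay among the highest. Actr2, encoding ARP2 (ENSMUSG00000020152, chromosome 11, 20062304 to 20112913, minus strand), had 21.1, 34.8, 35.5, 19.7 and 32.4 TPM with TubA, against 30.3, 33.5, 27.9, 32.1 and 33.2 TPM in control. The control libraries were close together (7.39% coefficient of variation) and the TubA libraries fell on both sides of them (26.8%). Arpc1a, the other ARPC1 paralogue (ENSMUSG00000029621, chromosome 5, 145083830 to 145108761, plus strand), had 32.5, 7.90, 9.57, 59.1 and 20.2 TPM with TubA, against 8.79, 28.6, 36.7, 41.1 and 23.1 TPM in control. It varied most among the members, 7.48-fold over the libraries.

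Arpc3, a small subunit that contacts ARP3 (ENSMUSG00000029465, chromosome 5, 122391878 to 122414184, plus strand), was far below every other member. Arpc3 had 1.64, 1.25, 3.61, 3.20 and 1.36 TPM in TubA replicates 1 to 5, against 2.21, 0.964, 0.923, 3.71 and 3.43 TPM in control. Its highest library was below the lowest library of Arpc1a, the next member, and its mean was 12.0 times lower. By mean it ranked 9798 among all genes. Arpc3 shared 0.827% of its 31-base words with other listed genes and had no listed copy that shared 20% or more. The depth of the libraries is unknown from TPM, so no counting interval can be set on these low values.

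**Figure D1:**
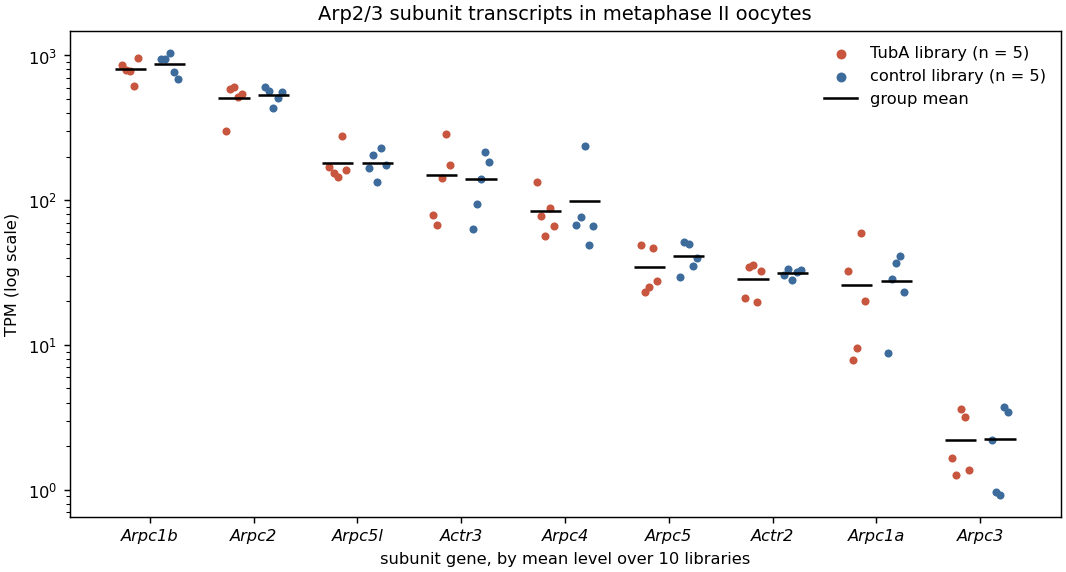
TPM (log axis) of the 9 subunit genes in each library, TubA left of control for each gene, with a bar at each group mean. Arpc1b lies highest (610.5 to 966 TPM with TubA, 690.4 to 1035 TPM in control), Arpc3 lowest (1.25 to 3.61 TPM with TubA, 0.923 to 3.71 TPM in control), and the groups overlap in every gene.

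With paralogues added together, the complex has 7 subunit positions, which are held in equal number in the protein complex. At the RNA level ARPC1 was the highest position and ARPC3 the lowest in 10 of 10 libraries. The ratio between them ranged from 209 to 723 in TubA libraries and from 208 to 1161 in control libraries. Leaving ARPC3 aside, ARP2 was the lowest position in 10 of 10 libraries, and ARPC1 exceeded it 22.3 to 42.1-fold with TubA and 21.5 to 38.4-fold in control. The sum over the 9 genes varied much less, from 1645 to 1987 TPM in TubA libraries and from 1777.5 to 2094 TPM in control libraries. All of these levels count every transcript of a gene, also those that do not encode the full subunit. The full-length Arpc4-201 alone had 1.72 to 4.09 TPM with TubA and 1.38 to 2.68 TPM in control. That is below ARP2, at 19.7 to 35.5 TPM with TubA and 27.9 to 33.5 TPM in control. The order of positions thus depends on which transcripts are counted.

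The paralogue pairs were uneven and their balance overlapped between the groups. Arpc1b made up 96.3%, 99.0%, 98.8%, 91.2% and 97.9% of the ARPC1 transcripts in TubA replicates 1 to 5, against 99.1%, 97.1%, 96.6%, 94.95% and 96.8% in control. Arpc5l made up 84.1 ± 3.79% of the ARPC5 transcripts with TubA and 81.2 ± 5.34% in control (mean ± SD, n = 5 each). This second share depends on which transcripts are counted: with protein-coding transcripts only, Arpc5l made up 33.1% with TubA and 24.0% in control. Arpc5l is then Arpc5l-202 alone, which overlapped between the groups, at 10.8 to 24.8 TPM with TubA and 8.66 to 15.5 TPM in control. Actr3b stood at 0.109 to 1.24 TPM with TubA and 0.531 to 2.30 TPM in control, at most 1.62% of the ARP3 transcripts in any library.

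In Arpc5l, Arpc4 and Arpc1b, the largest part of the level was assigned to a transcript annotated without the full coding sequence. In Arpc5l, 91.6% of the gene's level over all libraries was assigned to Arpc5l-201, in which the 22 missing bases shift the frame and leave 65 codons, against 153 in Arpc5l-202, so that it is annotated as a target of nonsense-mediated decay. Arpc5l-201 had 153, 137, 135, 252 and 144 TPM in TubA replicates 1 to 5, against 157, 190, 123, 213 and 161 TPM in control. Arpc5l-202 had 16.3, 15.6, 10.8, 24.8 and 15.1 TPM with TubA, against 8.66, 15.1, 11.65, 15.5 and 12.9 TPM in control. The short form was thus the larger in every library. Of the 722 words of 31 bases in Arpc5l-201, 27 occur in no other transcript of the gene, namely those across its junction. Few positions are thus its own. Arpc5l-202 also reaches further at both ends, from base 39008076 to 39015877, against 39008157 to 39015393 in Arpc5l-201. The part of these end bases in the split was not tested.

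In Arpc4, 78.9% of the level was assigned to Arpc4-202, which joins the start codon straight to the fourth exon of the full form and encodes 91 codons. A further 18.5% went to Arpc4-203, which lacks exon 2 and encodes 78 codons from a later start. Arpc4-201, which encodes the full 168 residues, had 2.60, 2.21, 1.72, 4.09 and 1.96 TPM in TubA replicates 1 to 5, against 1.75, 1.85, 2.42, 1.38 and 2.68 TPM in control. The full form therefore stood near the level of Arpc3 in both groups. Arpc4-202 had 107, 60.3, 38.9, 70.0 and 52.6 TPM with TubA, against 53.8, 62.0, 203, 30.2 and 43.3 TPM in control, and it holds the high value of Arpc4 in control replicate 3. Only 15 of the 665 words of Arpc4-202 occur in no other transcript of Arpc4, against 857 of 2240 in Arpc4-201. The 3′ ends differ as well, at base 113389182 in Arpc4-202, 113389652 in Arpc4-203 and 113390448 in Arpc4-201. The part of these ends in the split was not tested.

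**Figure D2:**
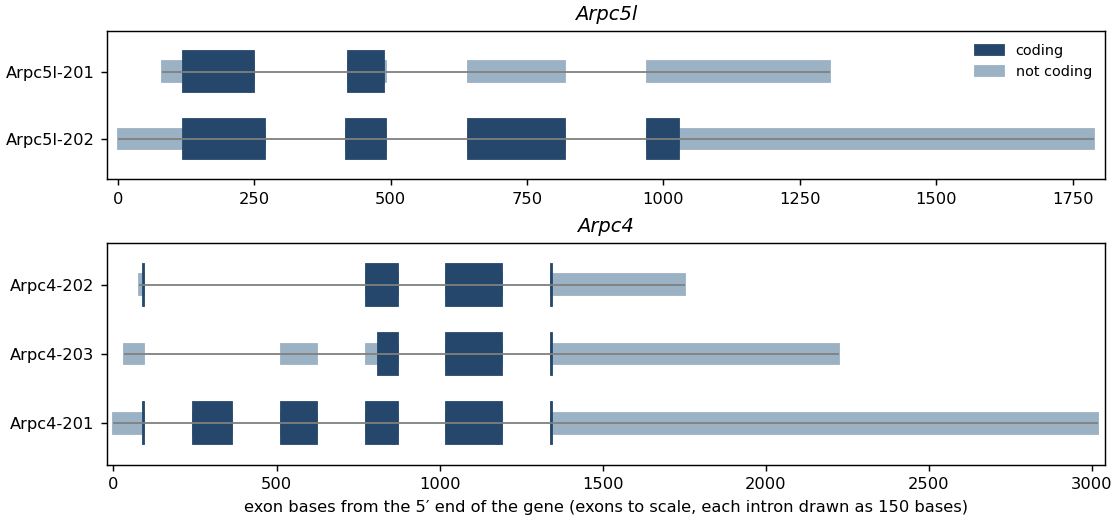
Exon maps of the Arpc5l and Arpc4 transcripts, with distance in exon bases from the 5′ end of the gene and each intron drawn at a fixed length; dark boxes are coding. Arpc5l-201 stops in its second exon (65 codons, against 153 in Arpc5l-202), and Arpc4-202 lacks exons 2 and 3 of Arpc4-201 (91 codons, against 168).

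Arpc1b was split mainly between Arpc1b-205, with 52.9% of the level, and Arpc1b-211, with 38.4%. Arpc1b-205 is annotated without its start and its end and runs 132 bases into the intron after exon 4. Arpc1b-211 encodes the whole subunit with the 4 added codons shown above, 376 in all, against 372 in Arpc1b-201. The transcript Arpc1b-211 had 349.5, 304, 301, 233 and 354 TPM in TubA replicates 1 to 5, against 370.1, 370.0, 372, 333 and 239 TPM in control. The form without the added codons, Arpc1b-201, had 34.3, 29.95, 31.1, 25.2 and 35.8 TPM with TubA, against 47.7, 39.7, 42.8, 21.7 and 28.0 TPM in control. Arpc1b-211 exceeded Arpc1b-201 in each library of both groups. These forms also differ at the 3′ end, which lies at base 145129699 in Arpc1b-201 and at 145128073 in Arpc1b-211. Of the words of 31 bases in Arpc1b-201, 1654 of 3075 occur in no other transcript of the gene. The same holds for 41 of 1364 in Arpc1b-211 and 23 of 666 in Arpc1b-205. The parts of the added codons and of the 3′ end in the difference were not tested.

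The remaining genes were simpler, apart from Actr3 and Arpc3. One full-length coding transcript held 99.1% of Actr2 (Actr2-201), 98.6% of Arpc1a (Arpc1a-201) and 95.9% of Arpc5 (Arpc5-201). Arpc2-201 and Arpc2-203, which encode the same 300 residues and differ at the 5′ and 3′ ends, held 85.2% and 13.7% of Arpc2. The low level of Arpc3 was spread over 4 transcripts with at least 10% each, the largest being Arpc3-202 with 34.9%, which encodes 178 residues.

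**Figure D3:**
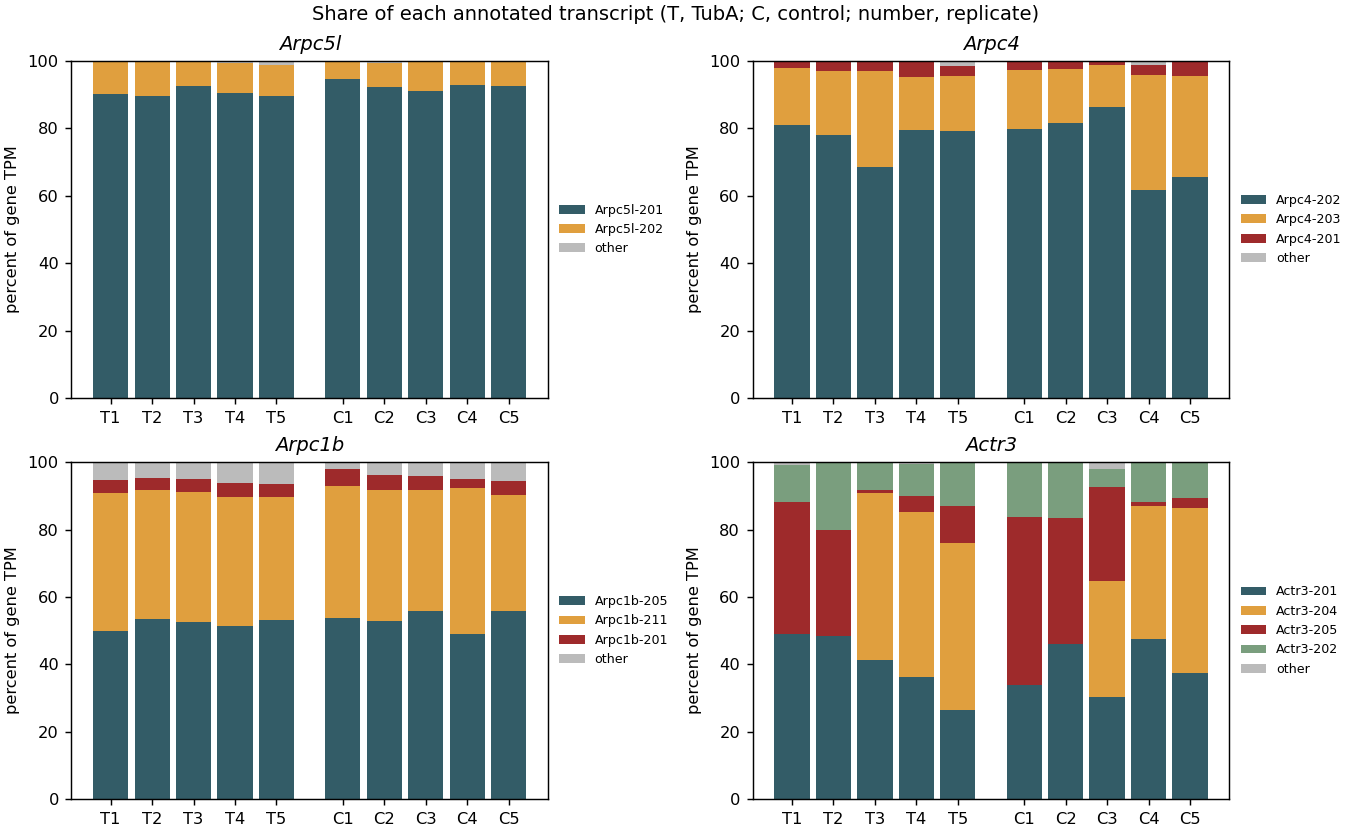
Share of the gene's TPM assigned to each annotated transcript in each library, for Arpc5l, Arpc4, Arpc1b and Actr3 (T, TubA; C, control). Arpc5l-201 holds at least 89.6% in each TubA library and 91.2% in each control library, while Actr3-204 is absent in T1, T2, C1 and C2.

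Actr3 was the member that followed the library sets. Its set B libraries held 142 to 288 TPM and its set A libraries 63.6 to 139.7 TPM, without overlap, although the nearest libraries of the sets were almost equal. The sets did not overlap for 1 of the 9 members, against 5.14% of all tested genes, and for 3 of the 20 tested member transcripts, all of Actr3, against 4.55% of all tested transcripts. The transcript Actr3-204, which begins in the intron, had 0, 0, 70.1, 141 and 86.5 TPM in TubA replicates 1 to 5, against 0, 0, 48.1, 84.2 and 90.0 TPM in control. It was listed at 0 in 4 of the 5 libraries of set A, with control replicate 3 as the exception, and at 70.1 TPM or more in all of set B. Actr3-205, annotated without its 3′ end, was higher in set A, with 31.1, 21.1, 1.29, 14.0 and 19.2 TPM with TubA, against 31.8, 35.4, 39.0, 2.81 and 5.88 TPM in control. Every set A library of Actr3-205 lay above every set B library. The full-length forms Actr3-201 and Actr3-202 encode the same 418 codons. Actr3-201 held 45.8 to 104 TPM in set B and 21.5 to 43.3 TPM in set A, while Actr3-202 overlapped between the sets, with 11.8 to 27.6 TPM in set B and 7.24 to 15.5 TPM in set A. The sets were found from the same libraries, so these are descriptions without a test. No 31-base word of Actr3-204 is absent from all other transcripts of the gene. Words in no other transcript number 1 of 2524 in Actr3-201, 28 of 637 in Actr3-205 and 66 of 2535 in Actr3-202. The split between these transcripts therefore rests on few positions. In addition, 33.6% of the words of Actr3 occur in Gm8822, a processed pseudogene on chromosome X. Gm8822 averaged 0.200 TPM with TubA and 2.31 TPM in control, a difference that did not pass the limma test described below. With this pseudogene added to Actr3, the log2 difference of Actr3, TubA minus control, was 0.0040 in place of 0.04.

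**Figure D4:**
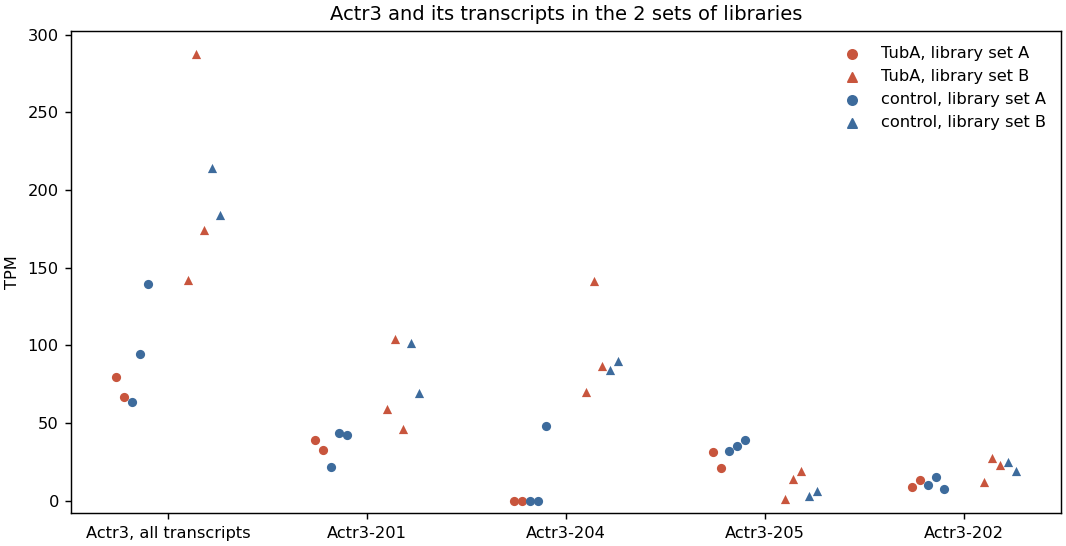
TPM of Actr3 and of its 4 main transcripts in each library, with circles for library set A on the left and triangles for set B on the right; colour gives the treatment. Actr3-204 is at 0 in 4 set A libraries and between 70.1 and 141 TPM in set B, with both treatments in each set.

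No Arp2/3 subunit passed the test for a difference between TubA and control oocytes. The test was limma on log2(TPM + 1) over 11664 genes that averaged 1 TPM or more, all 9 members among them, with Benjamini-Hochberg adjustment at 0.05. Of the members 0 passed (lowest adjusted p = 0.9999), 0 had an unadjusted p under 0.05 (lowest 0.29, Arpc5), and 0 had libraries that did not overlap between groups. The background was low as well: 0.00857% of tested genes passed, which is 1 gene, the pseudogene Rpl36-ps1, named after its values were seen. Of all tested genes 2.51% had an unadjusted p under 0.05, and 0.454% did not overlap between groups. The difference, TubA minus control, was negative in 7 of the 9 members, against 48.6% of all tested genes, with a median of -0.11 against 0.01 for all tested genes.

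The size of change that these data leave room for differed between members. Arpc1b averaged 802 ± 130 TPM with TubA and 878 ± 142 TPM in control (SD, n = 5 each), a log2 difference of -0.13 with a 95% interval of -0.49 to 0.23. Arpc2 averaged 509 ± 121 TPM with TubA and 536.5 ± 66.3 TPM in control, a difference of -0.11 (-0.54 to 0.33). Arpc5l averaged 181 ± 54.9 TPM with TubA and 182 ± 36.8 TPM in control, a difference of -0.02 (-0.49 to 0.44). The interval was about as narrow for Actr2, at 28.7 ± 7.68 TPM with TubA and 31.4 ± 2.32 TPM in control (-0.16, interval -0.64 to 0.31).

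The wider intervals belonged to genes with scattered libraries. Arpc5 averaged 34.4 ± 12.6 TPM with TubA and 41.2 ± 9.38 TPM in control, a log2 difference of -0.30 (-0.88 to 0.29). Actr3 averaged 150.1 ± 88.8 TPM with TubA and 139 ± 61.9 TPM in control, a difference of 0.04 (-0.88 to 0.96); it was -0.21 with the library set as a term. Arpc4 averaged 84.2 ± 29.4 TPM with TubA and 98.8 ± 77.0 TPM in control, a difference of -0.04 (-0.87 to 0.79), which became 0.33 without control replicate 3. Arpc3 averaged 2.21 ± 1.10 TPM with TubA and 2.25 ± 1.32 TPM in control, a difference of 0.02 (-0.76 to 0.80) whose sign is not that of the means and that understates changes of a gene this low because 1 TPM is added. Arpc1a averaged 25.9 ± 21.0 TPM with TubA and 27.65 ± 12.65 TPM in control, a difference of -0.29 (-1.47 to 0.88). For 8 of the 9 members the interval stayed inside a 2-fold rise or fall of TPM + 1, Arpc1a being the exception.

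Among single transcripts none passed either. Of 56 annotated transcripts of the members in the files, 20 reached a mean of 1 TPM, and 0 passed in a limma fit of 21838 transcripts, of which 0.00458% passed. Groups did not overlap for 0 of the 20, against 0.467% of all tested transcripts. At an unadjusted p under 0.05 stood 1 of the 20, against 3.15% of all tested transcripts. It was Arpc2-203, with 74.4, 74.7, 97.8, 78.7 and 93.8 TPM in TubA replicates 1 to 5, against 53.2, 51.1, 68.9, 76.5 and 45.3 TPM in control. Control replicate 4 lay above TubA replicates 1 and 2, so the groups overlapped. The log2 difference was 0.52 (95% interval 0.09 to 0.94; limma fit over all transcripts, unadjusted p = 0.021, Benjamini-Hochberg adjusted p = 0.999998), and the main transcript Arpc2-201 had -0.25 (-0.83 to 0.33).

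None of the genes that act with the complex passed the test. Of 64 such genes, 51 were tested and 0 passed; 27 had a positive and 24 a negative difference, with a median of 0.00, and 0 of them had groups without overlap. Among the 8 activators tested of 10, the median was -0.12. Wasl, encoding N-WASP, averaged 270.5 ± 53.7 TPM with TubA and 309.7 ± 53.5 TPM in control (log2 difference -0.20). Whamm, an activator on membranes, averaged 59.1 ± 11.5 TPM with TubA and 63.6 ± 33.0 TPM in control, with a log2 difference of 0.21 whose sign is not that of the means. Was and Hcls1, the forms of blood cells, were below a mean of 1 TPM. The cortactin gene Cttn, the HDAC6 substrate, averaged 10.2 ± 3.15 TPM with TubA and 10.8 ± 4.80 TPM in control (-0.04), and Jmy, an activator that also nucleates on its own, 8.15 ± 2.29 TPM with TubA and 6.19 ± 2.11 TPM in control (0.36). Cttn and Jmy were named after their values were seen.

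The partners of the activators were measured at these levels. Of the WAVE complex list 7 of 8 genes were tested (median -0.04), and its most abundant genes were Brk1, at 145 ± 32.4 TPM with TubA and 151 ± 41.0 TPM in control, and Abi1, at 101 ± 26.6 TPM with TubA and 116 ± 59.6 TPM in control. Of the WASH complex list 4 of 4 were tested (median -0.03), led by Washc2 at 79.2 ± 19.5 TPM with TubA and 83.2 ± 13.6 TPM in control. Washc4 stood at 18.3 ± 4.38 TPM with TubA and 18.7 ± 7.71 TPM in control. Among the GTPases and adaptors that bring activators to the membrane, 9 of 14 were tested (median 0.08). Rac1, the GTPase that switches on WAVE, averaged 503 ± 67.9 TPM with TubA and 484 ± 54.3 TPM in control, and Cdc42, which switches on N-WASP, 345 ± 83.7 TPM with TubA and 337 ± 49.5 TPM in control. The libraries of Cdc42 did not overlap between the sets, with 264 to 301 TPM in set B and 332 to 447 TPM in set A. Rac3 was the 1 gene of the 51 with an unadjusted p under 0.05 (limma fit over all genes, unadjusted p = 0.027, adjusted p = 0.9999, log2 difference -1.07), with 4.08, 10.9, 7.27, 5.07 and 12.3 TPM in TubA replicates 1 to 5, against 26.3, 15.4, 32.9, 14.3 and 6.13 TPM in control. Control replicate 5 lay among the TubA libraries, and Rac3 was named after its values were seen.

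Of the inhibitors and factors that take branches apart, 7 of 10 were tested (median 0.01). Coro2a, of the coronin family, had 76.7, 75.8, 14.2, 35.9 and 26.5 TPM in TubA replicates 1 to 5, against 2.72, 3.37, 32.4, 31.8 and 36.4 TPM in control (log2 difference 1.42; limma, unadjusted p = 0.076, adjusted p = 0.9999). The high TubA libraries and the low control libraries all belong to set A, and the set B libraries overlapped. Gmfb, a debranching factor, averaged 23.9 ± 8.88 TPM with TubA and 23.6 ± 7.85 TPM in control, and Gmfg was listed at 0 in all libraries. For actin and its turnover 16 of 17 genes were tested (median 0.01). Cfl1, the severing protein cofilin, averaged 522 ± 236 TPM with TubA and 525 ± 309 TPM in control. Tmsb10, which holds actin monomers, had 224.5, 56.0, 238, 1465 and 260.0 TPM in TubA replicates 1 to 5, against 36.4, 728, 223, 1085 and 567 TPM in control. Low and high libraries of Tmsb10 occurred in both groups.

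**Figure D5:**
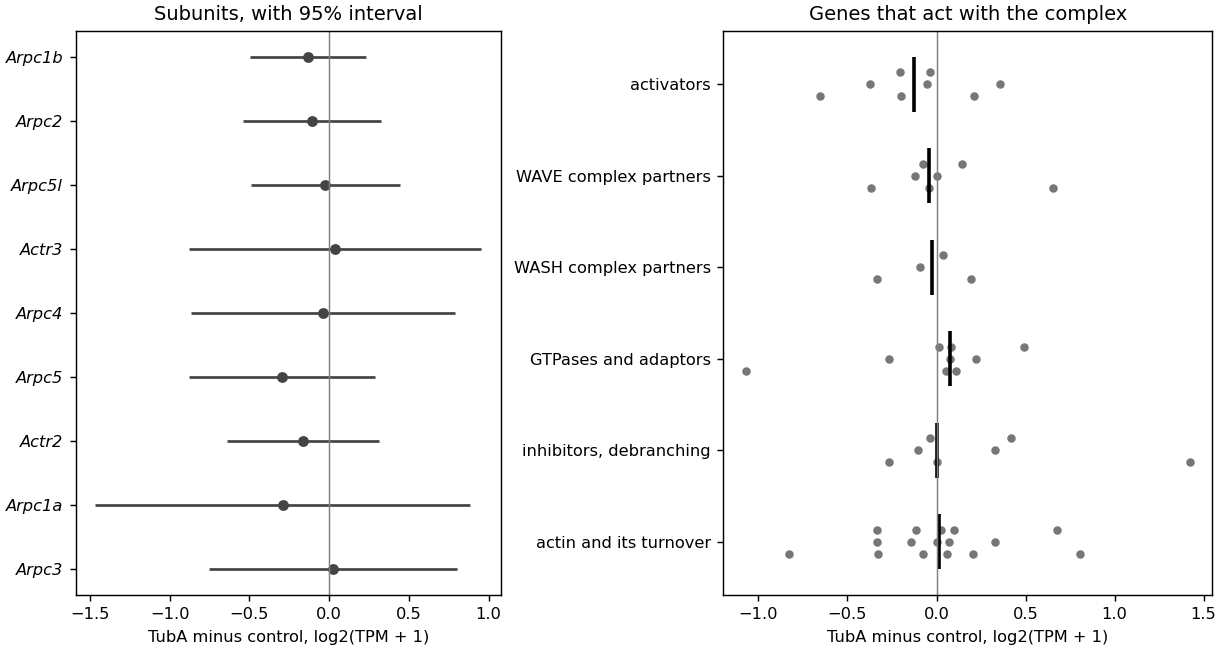
Left, log2 difference (TubA minus control, on log2(TPM + 1)) of each subunit with its 95% interval; right, the same difference for each tested gene of 6 lists of genes that act with the complex, with a bar at the median. All 9 intervals include 0, and the list medians lie between -0.12 and 0.08.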

How the data were processed

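Smart-seq2 libraries of single oocytes were sequenced on a HiSeq 2000, per the labels. The values deposited by the authors are TPM per Ensembl transcript, a unit read from the values, since each library sums to 1000000. Per the submitters' processing notes, reads were processed with Bowtie 0.12.2 among other steps, on build mm10. Which program estimated the abundances, on which annotation release and with what use of strand is not given in the sources used here. TPM keeps no depth, so no counting interval is given.

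Transcripts were summed to genes with GENCODE M21 (GRCm38). Of the transcripts 113492 matched and 1778, holding 0.531% to 0.753% of TPM, did not. Differences were tested with limma 3.58.1 (R 4.3.3) with an intensity trend and robust moderation on log2(TPM + 1), for genes or transcripts with a mean of at least 1 TPM, in all 10 libraries without covariates, and adjusted over all of them. The fit was tested on simulated data. Named were all members, transcripts with at least 10% of their gene, the 2 most abundant genes of each list and any past the threshold. A copy is a gene that shares at least 20% of a member's words of 31 bases. Members, lists and rules were chosen with earlier results of these data known. Python 3.11.15 was used with numpy 2.4.6, pandas 2.3.3 and matplotlib 3.10.9. Alternatives were other pseudocounts, filters, scalings and weights, the replicate number as a block, the library set as a term, coding transcripts only, pseudogene copies added, and leaving out each library.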

Additional observations from a re-analysis of the deposited data

Results flagged for a closer look

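Of the member genes, paralogue shares and named transcripts, 9 values stood far from the other 4 libraries of their group, with a gap above 0.71 of the group's range. About 1 group in 20 would be marked so by chance, and 60 groups were examined. Arpc2 in TubA replicate 1 was low at 301 TPM, as was its main transcript Arpc2-201 at 189 TPM. Arpc4 in control replicate 3 was high at 235 TPM, as was Arpc4-202 at 203 TPM. Arpc5l in TubA replicate 4 was high at 278 TPM, as was Arpc5l-201 at 252 TPM. The share of Arpc5l in the ARPC5 transcripts was low in TubA replicate 1, at 77.4%. Arpc1b-211 was low in control replicate 5, at 239 TPM. Arpc3-201 was high in TubA replicate 3, at 0.661 TPM.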

How the results depend on the processing

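No member passed under any alternative (198 values, lowest adjusted p = 0.97), and Actr2 and Arpc5 kept a negative difference in all of them. Other differences near 0 changed sign. For Actr3, 0.04 became -0.14 with array weights, -0.21 with the library set as a term, -0.085 with coding transcripts only, and -0.37 and -0.044 in sets A and B alone. For Arpc3, 0.02 became -0.17 with array weights, -0.13 with the set term, -0.17 with coding transcripts only, -0.00047 with a pseudocount of 5 and -0.35 in set B. For Arpc4, -0.04 became 0.12 with array weights, 0.10 with the set term and 0.28 in set B. Arpc1b had 0.0020 with array weights and 0.081 in set B, Arpc2 0.040 in set B, and Arpc5l 0.33 with coding transcripts only. With the set term Actr3-201 had -0.15, Actr3-204 -0.87, Actr3-205 0.17 and Actr3-202 -0.048. The set alternatives within 1 set and for transcripts were chosen after seeing the data. The cause of these changes was not tested.

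Leaving out each library gave -0.25 to -0.044 for Actr2, -0.21 to -0.037 for Arpc1b and -0.44 to -0.18 for Arpc5, which kept their sign but moved by over 1.5 times. It gave -0.24 to 0.28 for Actr3, -0.67 to 0.017 for Arpc1a, -0.18 to 0.070 for Arpc2, -0.14 to 0.18 for Arpc3, -0.23 to 0.33 for Arpc4 and -0.19 to 0.066 for Arpc5l. Among transcripts it gave -0.22 to 0.33 for Actr3-201, -0.68 to 1.23 for Actr3-204, -0.80 to 0.37 for Actr3-205, -0.088 to 0.32 for Actr3-202, -0.69 to 0.0029 for Arpc1a-201, -0.34 to 0.013 for Arpc2-201, -0.24 to 0.44 for Arpc4-202, -0.29 to 0.035 for Arpc4-203, -0.22 to 0.032 for Arpc5l-201 and 0.43 to 0.62 for Arpc2-203.

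The level of Arpc5l moved to 16.5 TPM with TubA and 12.8 TPM in control with coding transcripts only, and its share of the ARPC5 transcripts to 33.1% with TubA and 24.0% in control. The libraries overlapped between the groups in this level, at 10.8 to 24.8 TPM with TubA and 8.66 to 15.5 TPM in control. Scaling by median ratios moved no member's level by more than its SD. Of all genes, 0 passed limma among genes averaging 5 TPM or more (166 at an unadjusted p under 0.05), 0 with coding transcripts only (242), 0 in set B alone (199) and 12 in set A alone (514). Of all transcripts, 0 passed with the 5 TPM filter (314 at an unadjusted p under 0.05), and 0 to 2 passed when a library was left out: 0 without TubA replicate 1, 2 or 3 or control replicate 2, 4 or 5, and 2 without control replicate 1 or 3. With the replicate number as a block 0 genes passed (313 at an unadjusted p under 0.05) and 0 transcripts (672), and no member's call changed. Replicate numbers did not pair the libraries: the deviations of libraries with the same number correlated at -0.31 to 0.48, above 0.1 in 2 of 5 pairs, and 2 of 5 TubA libraries correlated best with their own number.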

Other observations

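The genes whose pattern over the 10 libraries lay nearest to the mean pattern of the 9 members, among 5813 coding genes that averaged 10 TPM or more, with genes known only by a clone or model number left out, were Tubg1, Cdip1, Pofut2, Atp5b and Ipmk. Their root mean square differences were 0.11, 0.12, 0.12, 0.13 and 0.14 log2 units, against a median of 0.44 over the genes compared. Tubg1, a gamma-tubulin gene, averaged 96.8 ± 19.7 TPM with TubA and 98.3 ± 6.58 TPM in control (SD, n = 5 each). The members themselves lay 0.24 (Arpc5l) to 0.72 (Arpc1a) log2 units from their own mean pattern. The nearest genes were picked from 5813 by this same distance, so their closeness cannot be compared with that of the members.

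Some members overlap other genes, and strand is not known to have been kept. Arpc1a overlaps the start of Kpna7, an importin gene on the opposite strand with a mean of 822 TPM. The 3′ end of Arpc1b overlaps Pdap1 on the opposite strand (8.81 TPM), and 19.4% of the words of Arpc1b occur in it. Arpc5l overlaps Rpl35, a ribosomal protein gene on the opposite strand with a mean of 13.0 TPM and up to 48.1 TPM, and Wdr38 on the same strand (0.0273 TPM). Only Arpc5l-204, with 0.256% of the level of Arpc5l, reaches these neighbours. Arpc5l-201 and Arpc5l-202 begin past them. The 3′ end of Arpc4 overlaps Ttll3 on the same strand (0.204 TPM). Reads from the shared bases cannot be told apart, and their part in the levels of the transcripts that hold those bases was not tested.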
